A study of Homo sapiens with 11 samples.

Results

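The transcripts described here come from 9 genes of ABC (ATP-binding cassette) transporters linked with multidrug resistance: ABCB1, ABCC1, ABCC2, ABCC3, ABCC4, ABCC5, ABCC6, ABCC10 and ABCG2. They were listed by name for their known link with drug resistance, at a point when earlier results of these data were known. Counts of members called are therefore a description beside the share of all genes. All 9 were found among the 26485 gene symbols of the count tables. RNA was sequenced from clone 1 of Caki-1-SR, a sunitinib-resistant subline of Caki-1, which is an established line of human clear cell renal cell carcinoma from a skin metastasis. The labels describe the subline as kept in medium with 1 µM sunitinib, a receptor tyrosine kinase inhibitor, and do not say whether the drug was present during the treatment. The drug combination, called ODC, held the ruthenium compound Rapta-C at 2 µM, the EGFR inhibitor erlotinib at 1 µM, the diabetes drug metformin at 1 µM and the plant lactone parthenolide at 5 µM. CTRL cells received none of these 4 drugs and are described as untreated in one place and as sham-treated in another. The groups were CTRL 24 h (3 libraries), ODC 24 h (3 libraries), CTRL 2 h (2 libraries) and ODC 2 h (3 libraries), 11 in all. All groups were cells of 1 clone, the single drugs of the combination were not sequenced, and the labels do not say which libraries came from separate cultures, so the p-values measure the spread between libraries, which may be technical.

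ABC transporters use the energy of ATP to move substrates across membranes. ABCB1 (P-glycoprotein), ABCC1 (MRP1) and ABCG2 (BCRP) are the exporters most often linked with loss of drug accumulation in tumor cells. The ABCC members mainly export organic anions, among them conjugates with glutathione, glucuronate and sulfate, while ABCB1 prefers bulky hydrophobic compounds. In the kidney, several of these proteins sit in the membranes of the proximal tubule, the part of the nephron from which clear cell carcinoma is thought to arise. Sunitinib is a known substrate of ABCB1 and ABCG2.

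The 24 h libraries held between 17785229 and 20882856 counts in total, and the 2 h libraries between 25782895 and 31118349. Levels are given as CPM, counts relative to the total of their library. In the 24 h libraries the floor of 3 counts equaled 0.144 to 0.166 CPM, and in those of 2 h it equaled 0.0953 to 0.116 CPM, which covers counting error only. The sample titles carry one month for the 2 h libraries and another for those of 24 h, without saying what was done then, so that month and treatment time cannot be told apart in any level set across them. Of 8 markers of renal epithelium or clear cell carcinoma, 6 were above 3 counts in each of 10 libraries and 7 were in CTRL 2 h replicate 1, while PAX2 and CA9 were at or near 0 elsewhere. Leukocyte and endothelial markers summed to at most 2.76 and 1.49 CPM in any library. CTRL 2 h replicate 1 stood apart from the rest, with 971 counts of the fibroblast collagen gene COL1A2 against at most 11 in the other libraries. The 5 fibroblast markers summed to 284 CPM there and to between 66.6 and 169 CPM elsewhere, mostly COL1A1. At 24 h COL1A2, DCN and LUM had at most 2 counts in any library, while PDGFRB held 15.9 ± 8.14 CPM in CTRL and 31.6 ± 15.4 CPM under ODC (SD, n = 3 each), groups that overlapped, and the part of this in the transporter values was not tested. Values of the 9 genes at 2 h are also given without it where that changed their direction. All CPM values below are scaled by the TMM method within each time point, so 2 h and 24 h levels were not scaled to each other. Log2 fold changes give ODC against CTRL.

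At 24 h, ABCC3 had the largest estimated change of the 9 transporter genes. Its level in the treated cells was 3.36-fold that of CTRL (95% interval 2.34 to 4.83), and its call depended on the library. The other 8 had log2 fold changes between 0.08 and 1.29, and none of them had an adjusted p under 0.05. All 9 estimates were above 0, except ABCB1 and ABCC2 when 1 of certain libraries was left out, and their median log2 fold change was 0.34 against 0.00089 over all 12689 genes tested. By the quasi-likelihood test of edgeR, adjusted by Benjamini-Hochberg, 1 of the 9 members was called, where 0.189% of all tested genes were. At an unadjusted p under 0.05 there were 4 members (ABCC1, ABCC3, ABCC5 and ABCG2), where 12.2% of all genes passed. The treated and CTRL libraries did not overlap in the same 4 members, all higher under ODC, and in 17.9% of all genes in either direction. The number of members called rose to 2 (ABCC1 and ABCC3) with edgeR's likelihood ratio test and with DESeq2, which called 3.16% and 2.98% of all genes. With libraries of adjacent number taken as pairs, which the labels do not state, it was 3 (ABCC1, ABCC3 and ABCC5), where 5.41% of all genes were called. In RNA of a whole culture, a change in the number of cells that hold a transcript and a change in its amount per cell cannot be told apart.

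**Figure D1:**
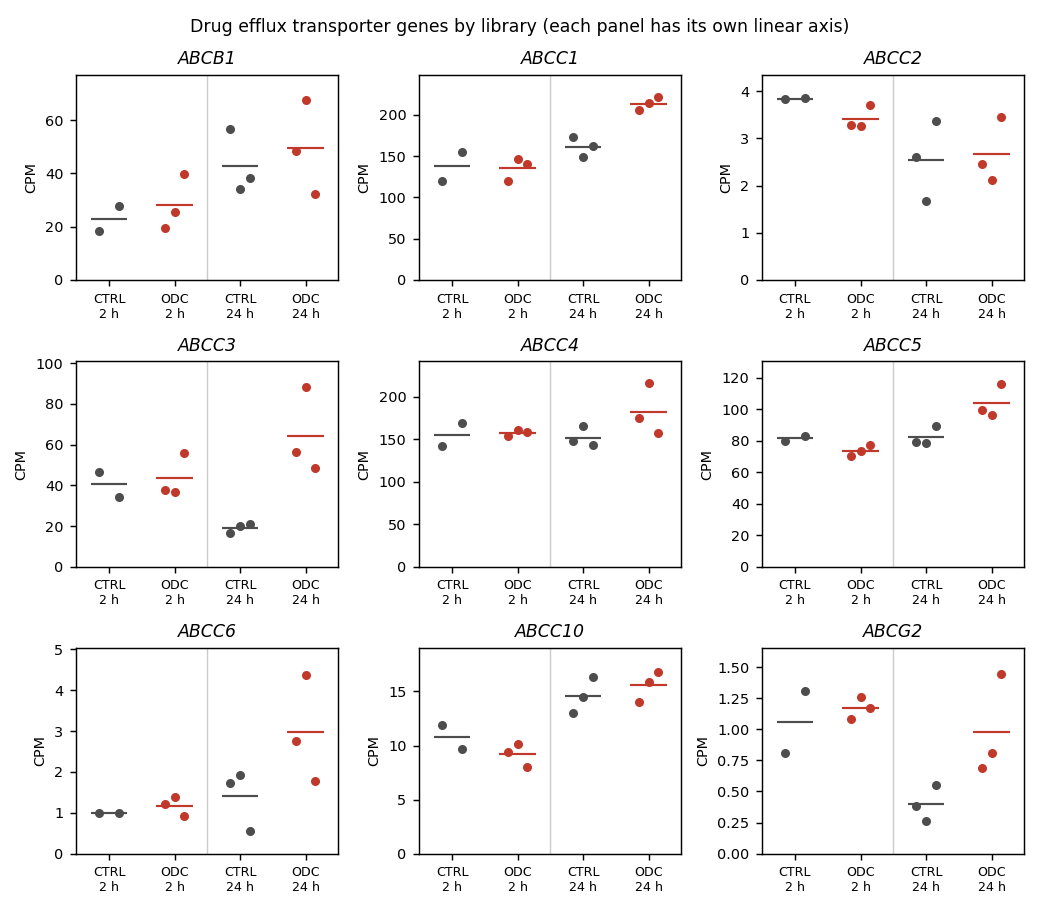
Level of each of the 9 transporter genes in the 11 libraries, in TMM-scaled CPM on a linear axis of its own per panel. Points are libraries, short lines are group means, grey is CTRL and red is ODC. At 24 h the treated libraries of ABCC1, ABCC3, ABCC5 and ABCG2 lie above all CTRL libraries, and the 2 h groups of these genes overlap except in ABCC5.

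ABCC3 encodes MRP3, an exporter of bile acids and of glucuronide conjugates that sits in the basolateral membrane of epithelial cells. The gene lies at chr17:50634777-50692253 on the plus strand of hg38 (GENCODE release 44). Its level at 24 h was 16.5, 20.2 and 20.8 CPM in the CTRL libraries and 56.3, 88.2 and 48.8 CPM in the ODC libraries. The groups were far apart, and ODC replicate 2 was the highest library of all. The means were 19.2 ± 2.34 CPM (SD, n = 3) and 64.4 ± 20.9 CPM (SD, n = 3), resting on 343 to 387 and 1015 to 1631 counts per library. This gave a log2 fold change of 1.75 (standard error 0.23), with a Benjamini-Hochberg adjusted p of 0.0404 in the quasi-likelihood test of edgeR, and 16 of the tested genes had a smaller p. With each library left out in turn the log2 fold change stayed between 1.45 and 1.91, but the call depended on the library. The adjusted p was 0.231 without CTRL replicate 1, 0.144 without CTRL replicate 2, 0.0858 without CTRL replicate 3 and 0.177 without ODC replicate 1, and it was 0.0192 and 0.0164 without ODC replicates 2 and 3.

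ABCC1 and ABCC5 were the abundant members with separated groups at 24 h. ABCC1 encodes MRP1, which exports glutathione conjugates and leukotriene C4, and lies at chr16:15949138-16143257 on the plus strand. Its CTRL libraries held 173, 149 and 162 CPM and its ODC libraries 206, 214 and 221 CPM. The 3 treated libraries were close to each other and all above CTRL, with means of 161 ± 12.1 and 214 ± 7.78 CPM (SD, n = 3 each). ABCC1 had a log2 fold change of 0.40 (standard error 0.093) and did not pass the same test (adjusted p = 0.142). ABCC5 encodes MRP5, an exporter of cyclic nucleotides and nucleotide analogs, and lies at chr3:183919934-184017939 on the minus strand. It held 79.1, 78.8 and 89.2 CPM in CTRL and 99.9, 96.4 and 116 CPM in the ODC libraries. The groups again did not overlap, and the log2 fold change of 0.34 had a standard error of 0.11 and an adjusted p of 0.262.

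ABCG2 and ABCC6 had larger fold changes on few counts. ABCG2 encodes BCRP, a transporter of many kinase inhibitors and other drugs that works as a dimer, and lies at chr4:88090150-88231628 on the minus strand. It had 8, 5 and 10 counts in CTRL and 14, 15 and 30 counts in ODC libraries at 24 h, or 0.400 ± 0.147 and 0.980 ± 0.404 CPM (SD, n = 3 each). All treated libraries were above all CTRL libraries, with a log2 fold change of 1.29 (standard error 0.44) and an adjusted p of 0.279 from the quasi-likelihood test. ABCC6, which encodes MRP6, a transporter needed for ATP release from liver cells, lies at chr16:16149565-16223522 on the minus strand. It had 36, 37 and 10 counts in CTRL and 56, 81 and 37 counts in ODC libraries, and the highest CTRL library matched the lowest treated one in count. The estimated log2 fold change of ABCC6, 1.06, had a standard error of 0.48 and an adjusted p of 0.428. The annotation holds a pair of near-identical copies of part of ABCC6 on chromosome 16, ABCC6P1 and ABCC6P2, and reads they share with ABCC6 could have been lost or split in the counting, so its level is uncertain.

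The other 4 members overlapped between groups at 24 h. ABCB1, at chr7:87503017-87713323 on the minus strand, varied as much within groups as between them, with 56.5, 34.1 and 38.2 CPM in CTRL and 48.3, 67.6 and 32.2 CPM in ODC libraries. Its log2 fold change was 0.20 (95% interval -0.45 to 0.85, adjusted p = 0.841), and the estimate was -0.10 without ODC replicate 2. ABCC4 encodes MRP4, an exporter of cyclic nucleotides, prostaglandins and nucleoside analogs, at chr13:95019835-95301475 on the minus strand. It held 147, 165 and 144 CPM in CTRL and 175, 216 and 157 CPM in ODC libraries (log2 fold change 0.26, standard error 0.13, adjusted p = 0.478). ABCC2 encodes MRP2, the apical exporter of conjugates into bile and urine, at chr10:99782640-99852594 on the plus strand. It was low, with 32 to 61 counts in CTRL and 39 to 72 in ODC libraries, and a log2 fold change of 0.08 (95% interval -0.66 to 0.81). Leaving out CTRL replicate 2 or ODC replicate 3 turned the ABCC2 estimate to -0.15. ABCC10 encodes MRP7, which can export taxanes, at chr6:43427366-43450427 on the plus strand, and went from 14.6 ± 1.68 to 15.6 ± 1.40 CPM (SD, n = 3 each, log2 fold change 0.09, 95% interval -0.23 to 0.42). ABCC10 overlaps DLK2 on the opposite strand, and the strand setting of the counting is not stated. None of the 9 members shares exon bases with another gene of its own strand.

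After 2 h of treatment no member passed the test. The 9 log2 fold changes lay between -0.23 (ABCC10) and 0.29 (ABCB1), with 5 above and 4 below 0 and a median of 0.02. None of the members was called by the adjusted quasi-likelihood test of edgeR, where 0% of 13332 tested genes were. None had an unadjusted p under 0.05 either, where 2.34% of all genes did, and none was called by the likelihood ratio test or DESeq2, which called 0.0375% and 0.0075% of all genes. The groups did not overlap in 2 members, ABCC2 and ABCC5, both lower under ODC, and in 15.3% of all genes. ABCC5 held 80.2 and 83.1 CPM in the CTRL libraries and 70.7, 73.5 and 77.3 CPM in the ODC libraries, the opposite order to 24 h, with a log2 fold change of -0.15 (95% interval -0.35 to 0.06). ABCC2 held 3.83 and 3.85 CPM in CTRL and 3.27, 3.27 and 3.70 CPM under ODC (log2 fold change -0.17, 95% interval -0.63 to 0.29). ABCC3 held 46.8 and 34.3 CPM in CTRL and 37.8, 37.0 and 56.0 CPM under ODC, and its log2 fold change of 0.10 had a 95% interval of -0.38 to 0.59. Without CTRL 2 h replicate 1, the library with fibroblast collagen transcripts, the ABCC3 estimate was 0.35, and those of ABCC4 and ABCG2 turned from 0.02 to -0.10 and from 0.14 to -0.16. In that fit, which leaves 1 CTRL library, the estimate of ABCB1 went from 0.29 to 0.03 and that of ABCC10 from -0.23 to -0.08. That of ABCC1 went from -0.02 to -0.19. The 95% interval of ABCC1 at 2 h, -0.33 to 0.29, overlapped that at 24 h, 0.19 to 0.62. For ABCC5 the intervals were -0.35 to 0.06 at 2 h and 0.09 to 0.59 at 24 h, and the difference is tested below.

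**Figure D2:**
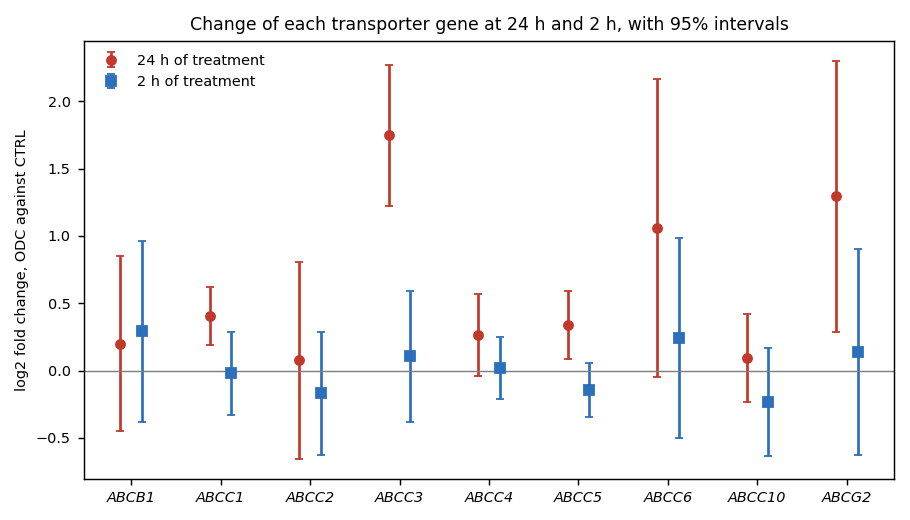
Log2 fold change of ODC against CTRL for each of the 9 transporter genes, at 24 h (red circles, 3 against 3 libraries) and at 2 h (blue squares, 3 against 2 libraries), with 95% intervals from edgeR's quasi-likelihood fit. The intervals of ABCC1, ABCC3, ABCC5 and ABCG2 lie above 0 at 24 h, and every 2 h interval includes 0.

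Whether the effect differed between the time points was tested by fitting the 11 libraries together, on 13333 genes, and contrasting the 2 changes. The estimated change was higher at 24 h than at 2 h in 8 of 9 members, ABCB1 being the exception, and in 6726 of the 13333 genes. For ABCB1 and ABCC2 the sign turned when 1 of certain libraries was left out. No member was called after adjustment, where 0.015% of all genes were, and 3 (ABCC1, ABCC3 and ABCC5) had an unadjusted p under 0.05, where 5.93% of all genes did. For ABCC3 the difference in log2 fold change was 1.62 (standard error 0.34), with an unadjusted p of 0.000447 and, in the quasi-likelihood test of edgeR, an adjusted p of 0.372. The likelihood ratio test and DESeq2 called ABCC3 for this difference, with adjusted p of 0.00428 and 0.00382, and called 0.278% and 0.291% of all genes. With each library left out in turn the ABCC3 difference stayed between 1.33 and 1.84. It was 1.39 without CTRL 2 h replicate 1, the library with fibroblast collagen transcripts, which leaves 1 CTRL library at 2 h. For ABCC5 the difference was 0.47 (standard error 0.15, adjusted p = 0.597), and for ABCC1 it was 0.41 (standard error 0.17, adjusted p = 0.790). In ABCC3 the CTRL levels themselves differed, with 40.6 ± 8.86 CPM (SD, n = 2) at 2 h and 19.2 ± 2.34 CPM (SD, n = 3) at 24 h. The 2 h libraries of both groups thus lay between CTRL and ODC at 24 h or, in 1 library, at the level of the treated ones. ABCB1 had the opposite order, with 23.0 ± 6.49 CPM in CTRL at 2 h and 42.9 ± 11.9 CPM in CTRL at 24 h. Levels of 2 h and 24 h were not scaled to each other, and month and treatment time cannot be told apart in them.

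To compare the genes with each other, CPM were divided by the length of each gene's merged exons in kilobases. ABCC1 and ABCC4 were the main members in every group. In CTRL 24 h they stood at 18.5 ± 1.38 and 17.6 ± 1.34 CPM per kilobase (SD, n = 3), ranges that overlapped, and their order turned when the longest transcript set the length. ABCC5 at 7.25 and ABCB1 at 6.68 CPM per kilobase followed and also overlapped, but by the longest transcript they stood apart at 14.1 and 8.24. ABCC3 at 1.99 and ABCC10 at 1.81 CPM per kilobase came next and overlapped as well, also by the longest transcript, where they stood at 3.37 and 2.87. ABCC2 at 0.325, ABCC6 at 0.203 and ABCG2 at 0.0713 CPM per kilobase were the lowest, with each range overlapping that of its neighbor. In ODC 24 h the range of ABCC3, 5.07 to 9.17 CPM per kilobase, overlapped that of ABCB1 instead, 5.01 to 10.5, and no longer that of ABCC10, 1.74 to 2.08. The share of ABCC3 in the length-scaled sum of the 9 members was between 3.03% and 4.02% in CTRL 24 h and between 7.59% and 11.4% in ODC 24 h. That sum was 54.4 ± 1.95 CPM per kilobase in CTRL 24 h and 72.0 ± 7.57 in ODC 24 h (SD, n = 3 each), against 50.9 ± 5.20 (SD, n = 2) and 51.1 ± 4.21 (SD, n = 3) at 2 h.

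**Figure D3:**
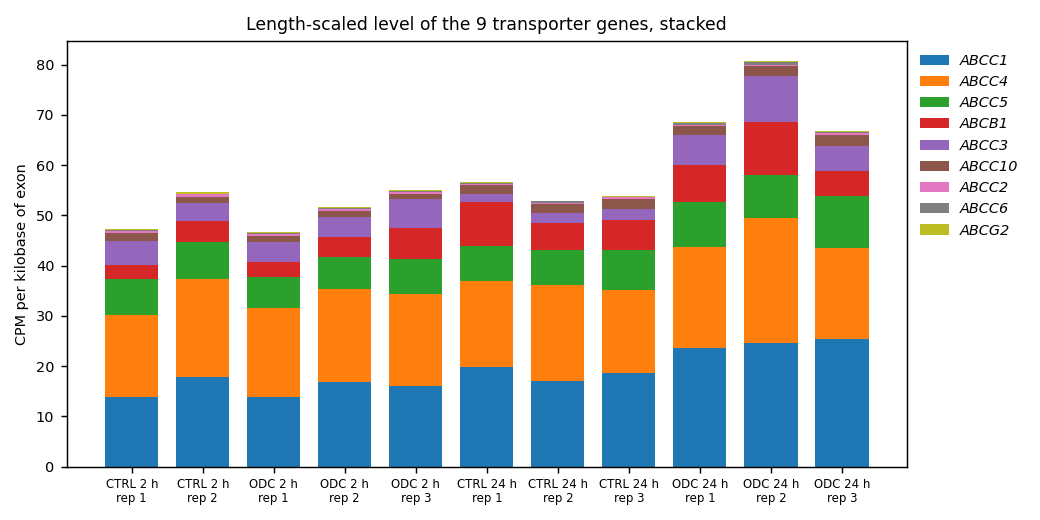
Length-scaled level of the 9 transporter genes in each of the 11 libraries, stacked, in CPM per kilobase of merged exon on a linear axis from 0. ABCC1 and ABCC4 are the widest bands of every bar, and the 3 ODC 24 h bars are the tallest, with a wider ABCC3 band (7.59% to 11.4% of the bar) than in CTRL 24 h (3.03% to 4.02%).

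Promoter sequences were read to show which response elements stand near the start sites of the members. RefSeq (GRCh38.p14) gave 14 windows of 300 bases, from 250 before to 50 after a start site, for 7 of the 9 members, and ABCC1 and ABCC3 had none in the table used. The core of the antioxidant response element, TGACNNNGC, through which NRF2 acts on many conjugation and export genes, was searched on both strands. It stood in 3 of the 14 member windows, in ABCC4, ABCC10 and ABCG2, and in 13.3% of all 35116 windows. The windows of ABCC5 and ABCG2 are shown because these 2 genes had separated groups at 24 h, and that of ABCC4, the most abundant member with an element, for comparison. Each is written 5′ to 3′ on the strand of its gene, and capitals mark the element.
ABCC5, chr3:184017835-184018134, minus strand: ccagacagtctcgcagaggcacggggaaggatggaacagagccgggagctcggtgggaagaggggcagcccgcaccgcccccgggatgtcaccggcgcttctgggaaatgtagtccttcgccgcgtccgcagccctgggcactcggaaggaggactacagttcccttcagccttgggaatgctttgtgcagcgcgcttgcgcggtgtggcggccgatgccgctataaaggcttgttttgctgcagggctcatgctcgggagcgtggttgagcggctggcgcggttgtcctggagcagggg
ABCG2, chr4:88159241-88159540, minus strand: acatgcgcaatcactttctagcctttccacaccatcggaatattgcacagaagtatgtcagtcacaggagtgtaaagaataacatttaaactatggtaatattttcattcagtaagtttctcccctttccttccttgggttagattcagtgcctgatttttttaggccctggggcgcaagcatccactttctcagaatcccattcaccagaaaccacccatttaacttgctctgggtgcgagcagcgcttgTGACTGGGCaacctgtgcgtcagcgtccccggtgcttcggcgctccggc
ABCC4, chr13:95301402-95301701, minus strand: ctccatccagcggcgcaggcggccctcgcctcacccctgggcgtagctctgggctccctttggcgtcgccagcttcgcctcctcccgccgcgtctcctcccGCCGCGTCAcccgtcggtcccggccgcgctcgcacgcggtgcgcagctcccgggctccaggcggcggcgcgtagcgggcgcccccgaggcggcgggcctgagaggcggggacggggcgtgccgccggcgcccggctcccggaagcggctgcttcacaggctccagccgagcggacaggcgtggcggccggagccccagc
The ABCG2 element began at base 2 after the start site, in 1 of the 5 start windows listed for that gene. The ABCC4 element read on the other strand, and its edge farther from the start site lay 149 bases before that site. The ABCC10 element began 143 bases before the start site. The ABCC5 window held no such core, but held TATAAA, which was found in 3 of 14 member windows and 11.5% of all windows. The core bound by AHR, GCGTG, stood in 7 of the 14 windows and in 36.5% of all, and the GC box, GGGCGG, in 4 of 14 and in 45.0% of all. Some ABCG2 windows overlap each other, as do those of ABCC6. The same bases of ABCG2 were therefore counted more than once for the AHR core and the GC box. A match in a window is a run of letters and not evidence of binding.

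Among the wider ABC family, 48 genes were listed, of which 29 were tested at both times and 14 had no more than 3 counts in any library. Of the 39 outside the 9 members, 20 were tested at 24 h. ODC was higher in 13 and lower in 7, and the median log2 fold change was 0.10. None was called by edgeR's quasi-likelihood test, while 6 that were higher and 1 that was lower had an unadjusted p under 0.05, a threshold that 12.2% of all genes passed. Both the likelihood ratio test and DESeq2 called 4 of them, TAP1, ABCA12, ABCB6 and ABCA10, with 3.16% and 2.98% of all genes called. TAP1, which encodes a subunit of the peptide transporter of antigen presentation, held 22.3, 26.0 and 27.8 CPM in CTRL and 51.5, 58.0 and 41.6 CPM under ODC (log2 fold change 0.99, standard error 0.15, adjusted p = 0.0655). ABCA12, a lipid transporter of the skin barrier, went from 6.32 ± 1.66 to 19.4 ± 5.99 CPM (log2 fold change 1.62, adjusted p = 0.0893), with no overlap, as in 17.9% of all genes. ABCB6, which transports porphyrins, went from 25.9 ± 5.11 to 46.3 ± 5.68 CPM (log2 fold change 0.84, adjusted p = 0.108). ABCA10 stood the other way, with 31, 23 and 32 counts in CTRL and 8, 3 and 4 counts under ODC (log2 fold change -2.54, adjusted p = 0.0685). The remaining genes with an unadjusted p under 0.05 were ABCA2 (0.53), ABCB8 (0.36) and ABCF1 (0.21), with log2 fold changes in parentheses, and ABCA5, at 0.42, overlapped between groups.

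**Figure D4:**
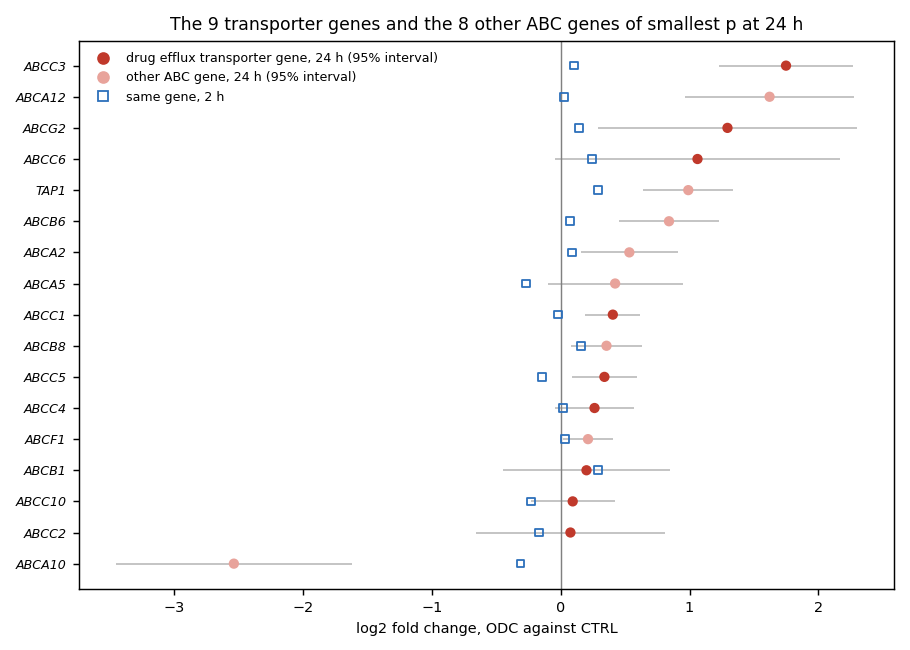
Log2 fold change of ODC against CTRL at 24 h for the 9 drug efflux transporter genes and the 8 other ABC genes of smallest p, ordered by size, with 95% intervals (dark red for the drug efflux transporters, pale red for the other ABC genes) and the same gene's value at 2 h (open squares). ABCC3 is at the top at 1.75 and ABCA10 at the bottom at -2.54, and the 2 h values lie closer to 0 than the 24 h values for both.

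At 2 h, 22 of the other ABC genes were tested and none was called by the quasi-likelihood test, the likelihood ratio test or DESeq2. These called 0%, 0.0375% and 0.0075% of all genes. ABCA1, which loads cholesterol onto apolipoproteins, was the only one with an unadjusted p under 0.05, which 2.34% of all genes had. It was at 104 ± 6.72 CPM in CTRL (SD, n = 2) and 82.3 ± 13.8 CPM under ODC (SD, n = 3). Its log2 fold change was -0.33, with an unadjusted p of 0.0427 in the quasi-likelihood test. CTRL replicate 2, at 98.8 CPM, was close to ODC replicate 2, at 98.1 CPM. ABCB8, a transporter of the mitochondrial inner membrane, had a log2 fold change of 0.16 with an unadjusted p of 0.164.

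Genes that supply or share the work of these exporters were counted in 4 further lists at 24 h, and none of their members was called by the quasi-likelihood test. Their counts at an unadjusted p under 0.05 are to be read against the 12.2% of all genes that passed, and those of the other 2 tools against 3.16% and 2.98%. Separated groups at 24 h are to be read against the 17.9% of all genes without overlap. For glutathione supply and conjugation, 20 of 38 listed genes were tested. Of these 15 were higher and 5 lower, their median log2 fold change was 0.18, and 3 that were higher had an unadjusted p under 0.05. GSR, the reductase that regenerates glutathione, led this list with 98.4, 88.8 and 85.4 CPM in CTRL and 148, 131 and 142 CPM under ODC (log2 fold change 0.63, standard error 0.10, adjusted p = 0.0685), and the likelihood ratio test and DESeq2 called it. GSTZ1 (0.48) and UGDH (0.31), which makes the donor of glucuronate, also had separated groups, and those of GSTM4 (0.75) overlapped.

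Among regulators of transporter genes, 11 of 16 listed were tested, 7 higher and 4 lower. At an unadjusted p under 0.05, which 12.2% of all genes reached, 2 were higher and 1 was lower. AHR, the aryl hydrocarbon receptor, held 94.5, 83.3 and 78.5 CPM in CTRL and 56.0, 62.1 and 55.4 CPM under ODC (log2 fold change -0.56, standard error 0.11, adjusted p = 0.0982), and the same 2 tools called it. AHR was also lower without overlap at 2 h, at 46.0 ± 4.75 CPM (SD, n = 2) and 36.0 ± 2.94 CPM (SD, n = 3). Its log2 fold change there was -0.35, with an unadjusted p of 0.0184 in the quasi-likelihood test. At 2 h the groups did not overlap in 15.3% of all genes, and 2.34% had an unadjusted p under 0.05. RXRA, the shared partner of several nuclear receptors, had a log2 fold change of 0.36 and MAFK, a partner of NRF2, one of 0.59. Both were without overlap at 24 h. In this list the 24 h groups did not overlap in 3 genes that were higher and 1 that was lower, against 17.9% of all genes. KEAP1, which holds NRF2 in check, had one of 0.18 with an unadjusted p of 0.0644.

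Solute carriers that bring drugs into cells showed 9 higher and 7 lower of 16 tested (33 listed), and none was called by the other 2 tools. At an unadjusted p under 0.05, which 12.2% of all genes reached, 3 were higher and none lower. These were SLCO3A1 (log2 fold change 0.36), SLC19A1, the folate carrier (0.44), and SLC29A4 (1.39), whose groups overlapped at 1.45 ± 0.629 and 3.84 ± 2.15 CPM (SD, n = 3 each). SLC29A1, a nucleoside carrier, had a log2 fold change of -0.35 with an unadjusted p of 0.0689. Of 10 genes for scaffolds and other resistance proteins, ODC was higher in 5 and lower in 5, and their median log2 fold change was -0.0047. ATP7A, a copper transporter linked with platinum resistance, was at 0.43, and SLC9A3R1, a scaffold that anchors ABCC members at the apical membrane, at -0.29. Both had an unadjusted p under 0.05, as 12.2% of all genes did, and no overlap, as 17.9% did. The other 2 tools called none of the 10. PDZK1 (1.28) and SLC9A3R2 (-0.31), related scaffolds, overlapped between groups. Of 6 tested markers of renal epithelium or clear cell carcinoma, 5 were lower and 1 was higher under ODC at 24 h. Their log2 fold changes ran from -0.71 to 0.33. KRT18, KRT8 and VIM, at -0.71, -0.62 and -0.27, had an unadjusted p under 0.05 each, as 12.2% of all genes did. The quasi-likelihood test called none of them, the likelihood ratio test and DESeq2 called KRT18 and KRT8, and the part of this in the transporter values was not tested.

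The genes whose levels ran most like those of ABCC3 were looked for among the 13332 other genes of the joint fit, by Pearson's r of log2(CPM + 0.5), centered within each time point, over the 11 libraries. The 5 closest were C1S (r = 0.99), C3, IGFBP3, CXCL16 and IFI30 (r = 0.97 each). They were chosen for their likeness, so their values are a description, and the 11 points share the treatment groups and the depth of each library. C1S and C3 encode complement proteins, IGFBP3 binds insulin-like growth factors, CXCL16 is a chemokine and IFI30 a lysosomal thiol reductase. C3 held 40.3, 61.2 and 53.9 CPM in CTRL 24 h and 189, 405 and 117 CPM in ODC 24 h. As in ABCC3, ODC replicate 2 was the highest of the treated 24 h libraries in all 5 genes. Levels in CTRL were lower at 24 h than at 2 h in each of them, as in ABCC3, for example 51.8 against 340.2 CPM for C3, 2.57 against 10.1 CPM for C1S and 126 against 480 CPM for IGFBP3. Month and treatment time cannot be told apart in these levels. CXCL16 had 1 to 3 counts in the CTRL 24 h libraries and 11 to 35 in the ODC 24 h libraries. Among the 9 members, r with ABCC3 was 0.70 for ABCC4, 0.67 for ABCC5 and for ABCC1, 0.66 for ABCC6, 0.60 for ABCG2, 0.33 for ABCB1, 0.19 for ABCC10 and -0.0020 for ABCC2.

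**Figure D5:**
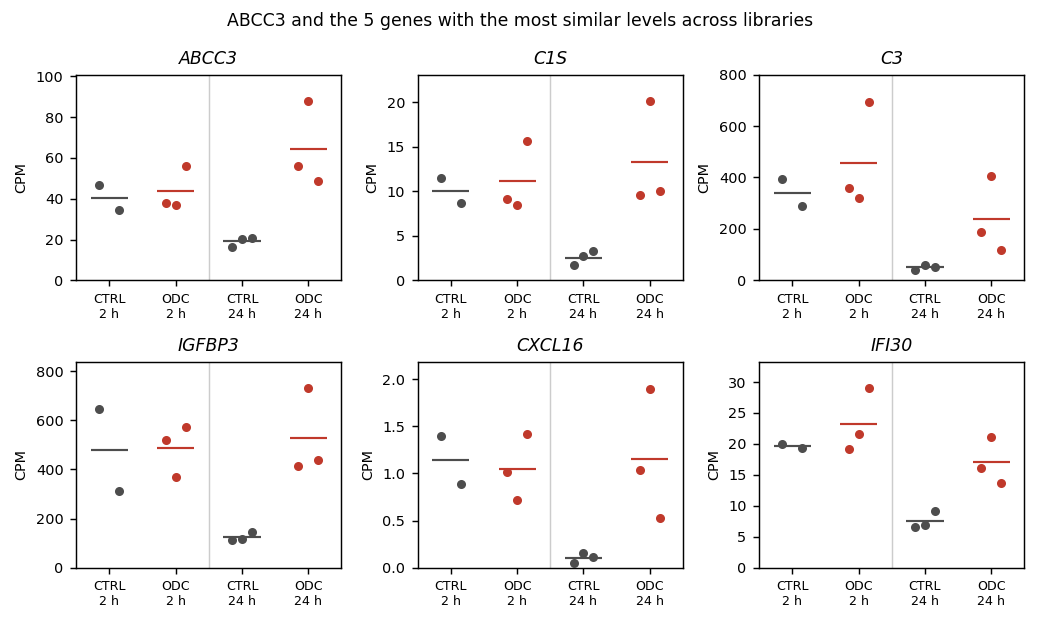
Levels of ABCC3 and of the 5 genes most like it over the 11 libraries, in TMM-scaled CPM on a linear axis of its own per panel, with points for libraries and lines for group means (grey CTRL, red ODC). In each panel the CTRL 24 h libraries are the lowest and ODC 24 h replicate 2 the highest of the 24 h libraries.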

How the data were processed

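The authors prepared stranded mRNA libraries from Caki-1-SR clone 1 cells, sequenced them as single-end reads, aligned these to hg38 with STAR and counted reads per gene with HTSeq. The submitters' processing notes give STAR 2.7.0f, HTSeq 0.9.1 and edgeR 3.26.8, and the methods of the study name other releases of STAR and edgeR. The values the authors deposited are raw counts for 26485 gene symbols, without normalization, in 1 table per time point. From these counts, ODC was compared with CTRL at each time point with edgeR 4.0.16 in R 4.3.3 (its earlier quasi-likelihood method, two-sided, Benjamini-Hochberg adjustment over all genes tested), using TMM factors of 0.965 to 1.02. Low genes were removed by filterByExpr (count of 10, total of 15). All 9 members passed the filter at both times. The difference between time points came from 1 model over the 11 libraries together. A gene was called at an adjusted p under 0.05. The common biological coefficient of variation was 0.166 at 24 h and 0.139 at 2 h.

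Replicate libraries differed by more than sampling noise, with a chi-square of 19.7 to 61.5 per gene, and each counted as 1 sample. The members and lists were chosen with earlier results of these data known. The genes named outside the 9 members were the 8 other ABC genes of smallest p at 24 h and the 4 at 2 h, the 4 of smallest p at 24 h in each further list, the 5 genes most like the member of smallest p, and markers. Results for some single genes that this rule names are left out. The fits were tested on simulated data. Alternatives covered the filter, the scaling, the test (DESeq2 1.42.0 among them), a joint fit, adjacent libraries as a block and each library left out. Positions and exon lengths came from GENCODE release 44. Python 3.11.15 with matplotlib 3.10.9 made the figures.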

Additional observations from a re-analysis of the deposited data

How the results depend on the processing

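At 24 h, 1 member was called, against 2 with edgeR's likelihood ratio test, 2 with DESeq2, 3 with adjacent libraries as a block and 0 to 1 with 1 library left out. For the difference between the time points, 0 members were called, against 1 with the likelihood ratio test and 1 with DESeq2, and 0 with each library left out. At 2 h, 0 members were called under all 16 alternatives. All genes called at 24 h went from 24 to 401 with the likelihood ratio test, 378 with DESeq2, 686 with the block, 186 in the joint fit, 92 with every gene of at least 1 count, and 2 to 70 with 1 library left out. At 2 h it was 0, against 5 and 1 with the 2 other tools and 42 without CTRL replicate 2. The labels state no pairing, and the deviations of adjacent 24 h libraries from their group means correlated at 0.24, 0.61 and 0.47. Those of CTRL and ODC libraries that were not adjacent correlated at -0.56 to 0.24. Deviations within a group sum to 0 for each gene, so these values depend on each other and do not by themselves show pairing. Under the block the adjusted p was 0.00706 for ABCC3, 0.0317 for ABCC1 and 0.0371 for ABCC5. No paired analysis was possible at 2 h because the labels and library numbers offer no pairs there.

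Directions turned with 1 library left out and under no other alternative. At 24 h the log2 fold change then ranged from -0.10 to 0.44 for ABCB1 and from -0.15 to 0.33 for ABCC2. At 2 h it ranged from -0.034 to 0.63 for ABCB1, -0.19 to 0.19 for ABCC1, -0.11 to 0.35 for ABCC3, -0.10 to 0.17 for ABCC4 and -0.16 to 0.54 for ABCG2. The difference between the times ranged from -0.45 to 0.21 for ABCB1 and from -0.0072 to 0.48 for ABCC2. The cause was not tested. ABCG2 could not be fitted at 24 h under the filters of 1 CPM and of 10 counts in every library. Scaling moved the median of all genes by less than 0.1 on the log2 scale. Depth limits ABCG2, ABCC6 and ABCC2 most, whose lowest libraries held 5, 10 and 32 counts, and 2 CTRL libraries limit every 2 h value.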
